A study of Danio rerio with 6 samples.

Results

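The hemoglobin genes of zebrafish larvae were described in pools exposed to a tire wear particle leachate and in control pools. Rows of the deposited gene table were taken where the symbol began with hbaa, hbba, hbae or hbbe, or where the description held the word hemoglobin. The rule found 10 of 24826 genes, 8 by symbol and 2 by description alone (hbz and LOC100334599). All 10 are named in the table as embryonic or zeta chains. It found 0 rows of adult chains, so the adult chains (hbaa, hbba) were not analysed here, and embryonic chains could not be set against adult ones.

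Each of the 6 samples was a pool of 80 wild-type larvae, with 3 pools in the control group and 3 in the leachate group. Control larvae were kept in medium with 0.001% bovine serum albumin, which the labels call the surfactant control, and treated larvae in leachate named TWP 700 in the labels. The labels record no albumin for the leachate group, and the number 700 is used here only as a name, since the titles and the design text give it different meanings. Exposure ran from 4 to 168 h after fertilization in dishes of 200 eggs, with a move to clean dishes at 72 h. The labels call the pools biological replicates but do not say which clutch a dish came from, so p-values measure the spread between these pools. In RNA from whole larvae, fewer red cells and less RNA per red cell cannot be told apart.

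Hemoglobin carries oxygen in red cells and is built as a tetramer of alpha-type and beta-type chains, each holding a heme group. Zebrafish make embryonic chains in their first red cells and keep making them as larvae, and adult chains replace them later in development. The genes lie in a larger and a smaller cluster on separate chromosomes, each mixing alpha-type and beta-type genes. By gene ID, the RefSeq gene table places hbbe1.1, hbae1, hbbe1.2, hbae1.3, hbbe1.3, LOC100334599 and hbae3 side by side in the larger cluster, and hbz, hbbe2 and hbae5 in the smaller. Some symbols differ between the deposited table and RefSeq: gene 30597 (hbae1 here) is hbae1.1 there, gene 572729 (hbae1.3 here) is hbae1.2, gene 100334599 is hbae1.3, and gene 563335 (hbz here) is hbae4. The symbols of the deposited table are used below. The hbae1 group and the hbbe1 group are close tandem copies, and no source used here says how reads shared between copies were assigned, so values of single copies are uncertain.

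None of the 10 hemoglobin genes passed the test for a difference between leachate and control. Of the genes tested, 7.87% were called higher and 7.29% were called lower at an adjusted p under 0.05, against 0 of 10 hemoglobin genes in either direction. An unadjusted p under 0.05 was reached by 29.8% of all genes tested and by 0 hemoglobin genes, whose lowest was 0.113 (hbbe1.2). DESeq2 and limma-voom also called 0 of the 10. For the 8 abundant genes, each with at least 1803 reads in every sample, the 95% intervals of the fold change all lay between 0.786 and 1.41. The median log2 fold change was 0.060 over the 10 genes and -0.0026 over all genes tested. Levels below are the deposited TPM (transcript abundance), which are scaled by gene length, and log2 fold changes compare leachate pools with control pools. They were fitted by edgeR to the counts with trimmed-mean (TMM) scaling and are given with their SE.

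**Figure D1:**
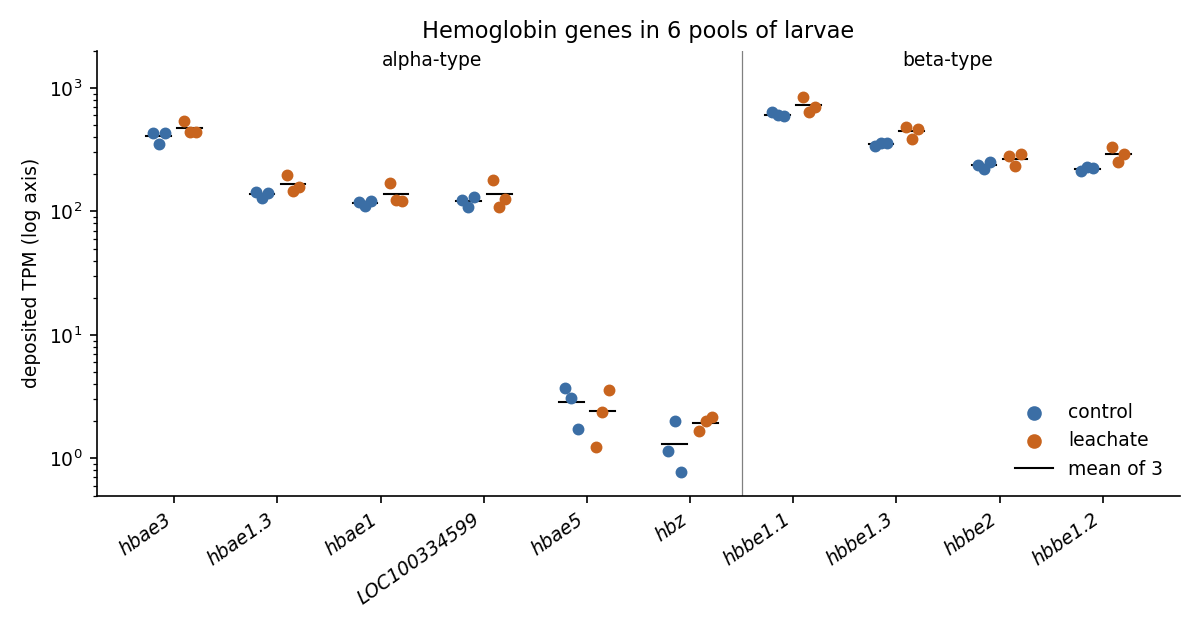
Deposited TPM of the 10 hemoglobin genes in each pool, on a log axis, with controls in blue, leachate pools in orange and a black bar at the mean of 3. Of the genes shown, 8 lie between 108 and 841 TPM, and hbae5 and hbz lie between 0.774 and 3.73 TPM.

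Among the alpha-type chains, hbae3 was the most abundant. It stood at 430, 351 and 432 TPM in controls 1 to 3 and at 543, 438 and 437 TPM in leachate 1 to 3. The leachate pools lay above the controls in TPM, with leachate 1 apart from the rest and leachate 2 and 3 just above control 3. In the fit hbae3 had a log2 fold change of 0.038 ± 0.15 (95% interval -0.28 to 0.36, adjusted p = 0.896).

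The 3 other abundant alpha-type genes, hbae1.3, hbae1 and LOC100334599, are the tandem copies of the hbae1 group and were all below hbae3 in every pool. hbae1.3 was at 143, 129 and 141 TPM in controls 1 to 3 and at 199, 147 and 158 TPM in leachate 1 to 3, with a log2 fold change of 0.095 ± 0.12 (adjusted p = 0.655). hbae1 was at 120, 110 and 121 TPM in controls and at 169, 123 and 122 TPM in leachate pools, with a log2 fold change of 0.044 ± 0.12 (adjusted p = 0.853). For both genes every leachate value in TPM was above every control value, though for hbae1 leachate 3 only just exceeded control 3. LOC100334599 was at 123, 108 and 131 TPM in controls and at 181, 109 and 126 TPM in leachate pools, with overlapping groups and a log2 fold change of -0.0053 ± 0.16 (adjusted p = 0.986). hbae1.3 was above hbae1 and LOC100334599 in all 6 pools, while the latter pair crossed over between pools.

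hbae5 and hbz, alpha-type genes of the smaller cluster, had 22 to 84 reads per sample and ranked between 12612 and 19621 of the 24826 genes by TPM. hbae5 was at 3.73, 3.05 and 1.74 TPM in controls and at 1.23, 2.37 and 3.58 TPM in leachate pools, with a log2 fold change of -0.35 ± 0.40 (adjusted p = 0.615). hbz was at 1.16, 2.0 and 0.774 TPM in controls and at 1.67, 2.0 and 2.17 TPM in leachate pools, with a log2 fold change of 0.44 ± 0.35 (adjusted p = 0.446). The groups overlapped for both genes. Their 95% intervals ran from 0.423-fold to 1.45-fold and from 0.797-fold to 2.31-fold, and so include a 2-fold decrease of hbae5 and a 2-fold increase of hbz.

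Among the beta-type chains, hbbe1.1 was the most abundant hemoglobin gene of all, ranking between 194 and 233 of the 24826 genes by TPM in the 6 pools. It was at 638, 600 and 587 TPM in controls and at 841, 637 and 703 TPM in leachate pools, with a log2 fold change of 0.075 ± 0.13 (adjusted p = 0.752). The groups touched, since leachate 2 lay just under control 1. hbbe1.3 was at 336, 356 and 360 TPM in controls and at 484, 386 and 468 TPM in leachate pools, with a log2 fold change of 0.17 ± 0.14 (adjusted p = 0.477). hbbe1.2 was at 213, 229 and 224 TPM in controls and at 335, 253 and 294 TPM in leachate pools, with a log2 fold change of 0.22 ± 0.13 (95% interval -0.061 to 0.50, adjusted p = 0.284). hbbe1.2 thus had the largest fitted change of the 8 abundant genes, and for it and hbbe1.3 every leachate pool was above every control in TPM. hbbe2, the beta-type gene of the smaller cluster, was at 238, 221 and 251 TPM in controls and at 282, 232 and 289 TPM in leachate pools, with overlapping groups and a log2 fold change of -0.0055 ± 0.14 (adjusted p = 0.985).

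**Figure D2:**
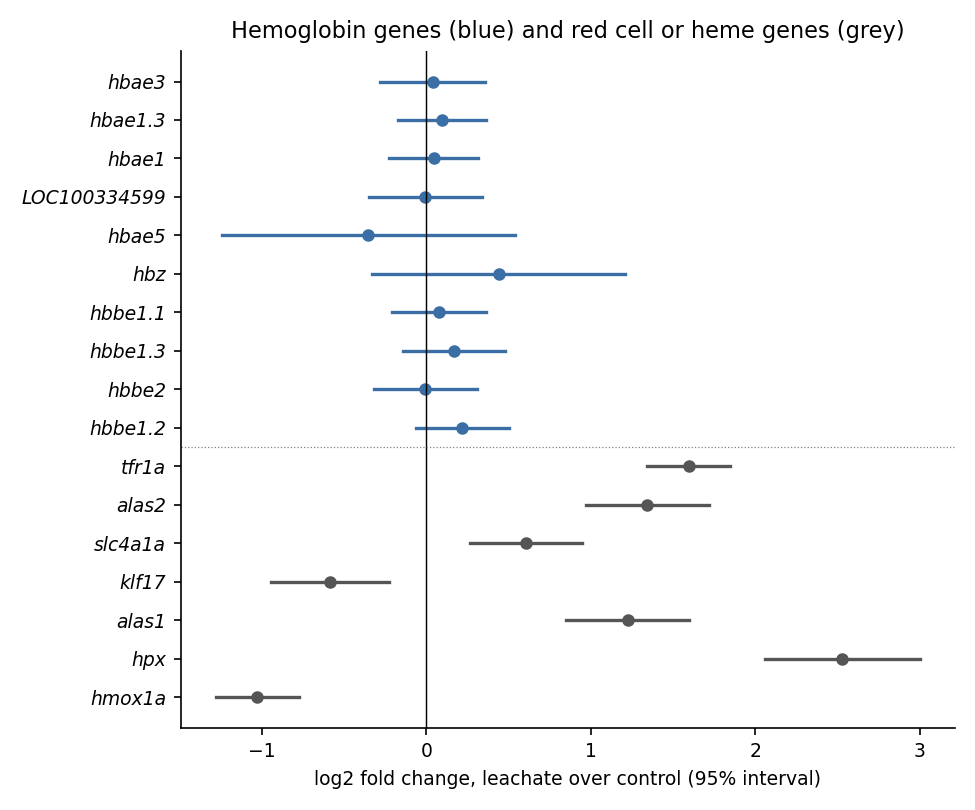
Log2 fold change between leachate and control pools, drawn with 95% intervals, for the 10 hemoglobin genes (blue) and for tfr1a, alas2, slc4a1a, klf17, alas1, hpx and hmox1a (grey), from the edgeR fit over all genes. Every blue interval crosses 0, and the grey genes are shown as called genes of their lists, so that their intervals leave out 0 by this choice.

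Whether the groups stood apart depended on the scale, which moved all genes together. In TPM, 5 of the 10 genes (hbae1, hbae1.3, hbae3, hbbe1.2 and hbbe1.3) had all leachate pools above all controls, a pattern that 25.1% of all genes tested also showed. In TMM-scaled CPM (reads divided by library size times its TMM factor, with no scaling by gene length), the groups overlapped for all 10 hemoglobin genes, whereas they did not overlap, in either direction, for 35.1% of all genes. The median gene itself had a log2 ratio of mean TPM of 0.17, and the median hemoglobin gene one of 0.25. Summed over the 10 genes, TPM was 2246, 2109 and 2251 in controls 1 to 3 and 3036, 2329 and 2602 in leachate 1 to 3, a ratio of means of 1.21 with groups apart. By class, the alpha-type TPM sums overlapped (703 to 828 in controls, 821 to 1095 in leachate pools). The beta-type TPM sums did not (1406 to 1424 against 1507 to 1941). In CPM the sum over the 10 genes was 1044, 1022 and 1261 in controls and 1198, 1107 and 1229 in leachate pools, a ratio of means of 1.06 with overlapping groups. As a share of a sample's counts summed over the 24826 listed genes, with no TMM factor, the 10 genes had 0.104%, 0.101% and 0.111% in controls and 0.133%, 0.113% and 0.125% in leachate pools. The ratio of means was 1.17 with groups apart. The summed FPKM had a ratio of means of 1.18, also with groups apart. The TMM factors were 0.882 for control 3, 1.109 for leachate 1 and between 0.992 and 1.02 for the other pools. Control 3 carried the highest CPM of the controls for all 8 abundant genes, and control 2 the lowest for 6 of them. Without control 3 the median log2 fold change of the 10 genes was 0.165, with 0 genes called. Without control 2 that median was 0.00039, with 5 of the 10 genes above 0. Without control 2 and leachate 1 together that median was 0.0053. In both of these fits 0 hemoglobin genes were called. Leachate 1 carried the highest TPM of all 6 pools for 7 of the 8 abundant genes, the exception being hbbe2. With library totals in place of TMM the median of all genes moved to 0.131 and that of the hemoglobin genes to 0.201.

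**Figure D3:**
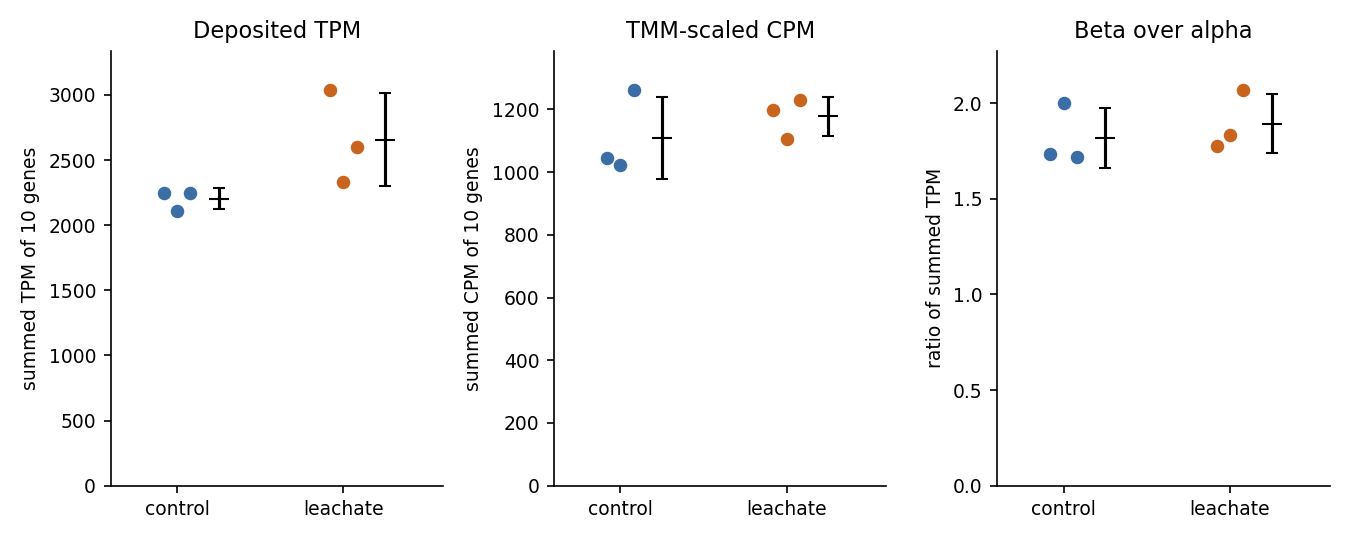
Summed TPM (left), summed TMM-scaled CPM (middle) and the ratio of summed beta-type to summed alpha-type TPM (right) in each pool, with the mean and SD of 3 beside the points and axes starting at 0. The leachate pools lie above the controls on the left (2329 to 3036 against 2109 to 2251 TPM) and overlap them in the other panels.

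Ratios within a pool do not depend on the scaling of libraries. Beta-type TPM over alpha-type TPM was 1.73, 2.0 and 1.72 in controls and 1.77, 1.84 and 2.07 in leachate pools, at 1.82 ± 0.157 and 1.89 ± 0.155 (SD, n = 3). The groups overlapped, and control 2 and leachate 3 held the high values. The smaller cluster gave 10.9% ± 0.295 of hemoglobin TPM in controls and 10.3% ± 0.983 in leachate pools, nearly all of it from hbbe2.

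Within each chain class the same gene led in all pools. hbae3 formed 51.5% ± 1.36 of alpha-type TPM in controls and 51.5% ± 1.83 in leachate pools, with all pools between 49.7% and 53.3%. hbbe1.1 formed 42.9% ± 1.76 of beta-type TPM in controls and 41.9% ± 1.65 in leachate pools. The shares of the 10 genes in their class overlapped between groups, except that of hbbe1.2. Its share of beta-type TPM was 14.96%, 16.3% and 15.8% in controls and 17.3%, 16.8% and 16.8% in leachate pools. No test was run on these shares, and reads shared between the hbbe1 copies bear on the value for hbbe1.2. The shares of a class add to the whole, so they are not independent, and they have no counterpart over all genes to be set against.

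**Figure D4:**
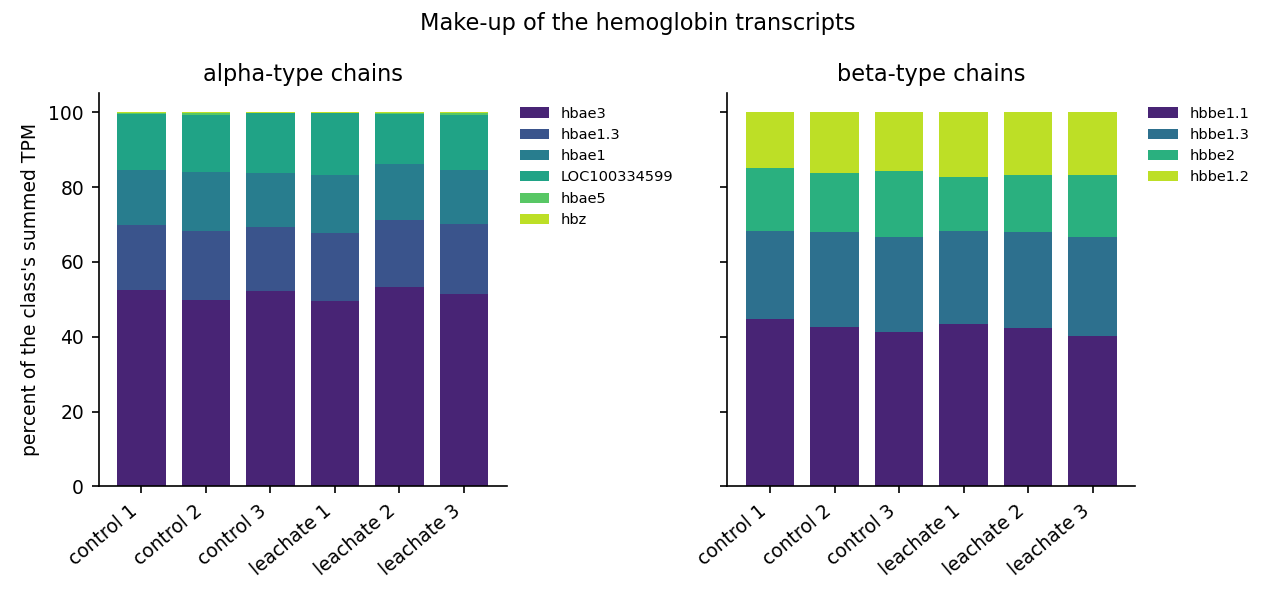
Share of each gene in the summed TPM of its chain class, in percent, for alpha-type (left) and beta-type chains (right) in the 6 pools, with each bar adding to the whole class. hbae3 forms between 49.7% and 53.3% of every alpha bar and hbbe1.1 between 40.1% and 44.8% of every beta bar.

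The spread between replicate pools was read from the same values. For the abundant genes, the coefficient of variation in CPM lay between 6.85% (hbbe1.1) and 18.3% (LOC100334599) in controls, and between 2.01% (hbae3) and 16.1% (LOC100334599) in leachate pools. For the low genes it was wider, reaching 54.3% for hbae5 in leachate pools.

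Genes that mark or build the red cell were read from the same fit. Of 22 measured erythroid marker genes, 3 rose (13.6%) and 1 fell (4.55%), against 7.87% and 7.29% of all genes, and the others did not pass. The list had a median log2 fold change of 0.20. tfr1a, the receptor that takes up transferrin-bound iron, was at 18.7, 20.0 and 19.1 CPM in controls and at 66.3, 55.6 and 52.6 CPM in leachate pools (log2 1.596 ± 0.12, adjusted p = 2.09e-05). alas2, the erythroid enzyme of the first step of heme synthesis, was at 7.1, 6.4 and 9.82 CPM in controls and at 21.0, 17.0 and 21.2 CPM in leachate pools (log2 1.34 ± 0.17, adjusted p = 5.37e-04). slc4a1a, the anion exchanger of the red cell membrane, was at 13.1, 14.0 and 10.9 CPM in controls and at 23.5, 17.4 and 16.8 CPM in leachate pools (log2 0.61 ± 0.16, adjusted p = 0.0238). In each of these called genes all leachate pools were above all controls. The CPM groups did not overlap, in either direction, for 35.1% of all genes. The slc4a1a call was lost without control 1 (adjusted p = 0.0734), without control 3 (0.076) and without leachate 1 (0.0754). The differences between these genes and the hemoglobin genes were not tested.

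The erythroid gene that fell was klf17, a Krüppel-like factor gene of red cell development, at 7.06, 6.43 and 6.67 CPM in controls and at 3.78, 5.14 and 4.52 CPM in leachate pools (log2 -0.59 ± 0.16, adjusted p = 0.033). klf17 did not pass without control 1 (adjusted p = 0.116), control 3 (0.0684), leachate 1 (0.0978) or leachate 3 (0.0896), with library totals (0.0925) or with the replicate number as a block (0.0704). gata1a, the master regulator gene of the red cell lineage, was at 0.242 ± 0.136 CPM in controls and 0.407 ± 0.237 CPM in leachate pools and did not pass (log2 0.71 ± 0.54, adjusted p = 0.42). Its level was low in every pool (0.136 to 0.395 CPM in controls, 0.229 to 0.675 CPM in leachate pools), which limits this result. The erythroid list as a whole summed to between 565 and 653 CPM in controls and between 664 and 718 CPM in leachate pools. The gap between these ranges was narrower than the difference in tfr1a alone (18.7 to 20.0 against 52.6 to 66.3 CPM). The heme synthesis list, described below, was also apart in its sum (659 to 785 CPM in controls, 823 to 878 CPM in leachate pools). So was the list of globin switch factors (730 to 772 CPM in controls, 810 to 940 CPM in leachate pools). For the heme synthesis list, the gap was narrower than the difference in alas1 alone (83.7 to 133 against 222 to 264 CPM). The part of the erythroid list in the hemoglobin values was not tested. Counts of erythroid genes called were 5 up and 1 down without control 2, with or without leachate 1, 2 up and 0 down when control 1, control 3 or leachate 1 was left out, and 3 up and 0 down when leachate 3 was.

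Heme is the other partner in hemoglobin. Of 28 measured heme synthesis genes, 9 rose (32.1%) and 3 fell (10.7%), against 7.87% and 7.29% of all genes. The list had a median log2 fold change of 0.21. Its genes that rose were alas1, alas2, hmbsa, hmbsb, urod, slc25a38b, abcb10, glrx5 and pgrmc1. alas1, the enzyme of the same step in other tissues, was at 101, 83.7 and 133 CPM in controls and at 222, 257 and 264 CPM in leachate pools (log2 1.23 ± 0.17, adjusted p = 9.45e-04). The genes that fell were clpxa, uros and slc25a28. Of these, clpxa, whose product activates and turns over the alas enzymes, had a log2 fold change of -0.52 ± 0.11 (adjusted p = 0.0117) and uros, a later enzyme of the pathway, one of -0.49 ± 0.13 (adjusted p = 0.0239). The clpxa call was lost without control 1 (0.0506), without leachate 2 (0.0769), without leachate 3 (0.0721) and with library totals (0.0795). The uros call was lost without any of control 1, control 3, leachate 1, leachate 2 or leachate 3 (0.0539 to 0.0891), with the block (0.0561) and with library totals (0.0821). The number of heme synthesis genes that rose was between 6 and 9 without 1 sample, and 6 without control 1 or leachate 2. The number of these genes that fell was 0 without control 1, leachate 2 or leachate 3, and 1 without control 3 or leachate 1.

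In the list for clearance of hemoglobin and heme, 4 of 14 measured genes rose and 4 fell (28.6% each way). Of all genes, 7.87% rose and 7.29% fell. hpx, the plasma heme binder hemopexin, was at 1.97, 1.09 and 1.67 CPM in controls and at 10.1, 9.08 and 8.43 CPM in leachate pools (log2 2.53 ± 0.21, adjusted p = 4.50e-05). blvra, a biliverdin reductase gene, rose from 5.08 to 9.14 CPM (log2 0.85 ± 0.16, adjusted p = 0.00512). hmox1a, the inducible heme oxygenase gene, was at 42.8, 34.7 and 43.2 CPM in controls and at 19.5, 19.4 and 20.2 CPM in leachate pools (log2 -1.03 ± 0.12, adjusted p = 2.59e-04). hamp, the gene of the iron hormone hepcidin, fell from 32.2 to 3.67 CPM (log2 -3.14 ± 0.18, adjusted p = 4.95e-06). These 4 genes were named as the called genes with the largest changes, and the groups stood apart in each. In either direction, the CPM groups did not overlap for 35.1% of all genes. In this list 2 genes fell without control 1 or without leachate 2.

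Among 27 genes listed as factors of the switch between embryonic and adult globins, known mostly from mammals, 26 were measured, of which 3 rose (11.5%) and 2 fell (7.69%), shares close to the 7.87% and 7.29% of all genes. dnmt1, the maintenance DNA methyltransferase gene, rose from 14.7 to 30.6 CPM (log2 1.05 ± 0.14, adjusted p = 8.04e-04). sox6, a repressor of embryonic globin in mice, was at 10.4, 13.4 and 12.1 CPM in controls and 19.4, 16.4 and 17.6 CPM in leachate pools (log2 0.58 ± 0.13, adjusted p = 0.0144), and did not pass without control 1 (0.0737). bcl11aa, whose mammalian counterpart silences fetal globin in humans, was at 18.1, 18.3 and 17.8 CPM in controls and 20.7, 19.9 and 18.1 CPM in leachate pools and did not pass (log2 0.11 ± 0.11, adjusted p = 0.535). The genes that fell were klf17 and mbd2, a methyl-DNA binding protein gene (8.41 to 5.98 CPM, log2 -0.49 ± 0.13, adjusted p = 0.0305). mbd2 did not pass without any of control 1, control 3, leachate 1, leachate 2 or leachate 3 (0.0551 to 0.105), with library totals (0.14) or with the block (0.0751). In this list 1 gene rose without control 1, 0 genes fell without control 1, control 3, leachate 1 or leachate 3, 1 without leachate 2, and 3 without control 2, also when leachate 1 was left out with it. With library totals 6 genes of the list rose and 0 fell, while 2809 of all genes were called higher and 868 lower.

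Of the 6 other globin genes measured, 0 passed in either direction with all pools, and 1 rose and 1 fell without control 2. With all pools, 7.87% of all genes rose and 7.29% fell. mb, the gene of the muscle oxygen store myoglobin, was at 113, 31.8 and 110 CPM in controls and 82.7, 86.9 and 90.4 CPM in leachate pools, with control 2 far below the rest (log2 0.026 ± 0.49, adjusted p = 0.981). Without control 2 it was lower in leachate pools (log2 -0.37, adjusted p = 0.035). cygb1, a cytoglobin gene, was at 68.8, 69.1 and 63.1 CPM in controls and 91.1, 81.2 and 81.1 CPM in leachate pools and did not pass (log2 0.33 ± 0.11, adjusted p = 0.0628), though it did without control 2 (0.0478), with DESeq2 (0.0442) and with library totals (0.0418).

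In the red cell metabolism and antioxidant list, 5 of 20 measured genes rose (25%) and 0 fell, beside 7.87% and 7.29% of all genes. cyb5a, a cytochrome b5 gene whose product takes part in reducing methemoglobin, rose from 15.6 to 49.6 CPM (log2 1.67 ± 0.13, adjusted p = 3.26e-05), and the thioredoxin gene txn rose from 18.3 to 37.9 CPM (log2 1.05 ± 0.16, adjusted p = 0.00149). The number that rose was 3 without control 1 and 9 with library totals, and 3 genes fell without control 2. In the oxygen response list, 2 of 20 measured genes rose (10%) and 3 fell (15%), again beside 7.87% and 7.29% of all genes. egln3, an oxygen-sensing prolyl hydroxylase gene, rose from 1.39 to 3.06 CPM (log2 1.13 ± 0.23, adjusted p = 0.007) and the lactate dehydrogenase gene ldha from 138 to 196 CPM (log2 0.51 ± 0.14, adjusted p = 0.0321), the latter call being lost without any single pool other than control 3 and with the replicate block (0.0547). The number that rose was 1 without control 1 or any 1 leachate pool, and 4 with library totals. Without control 2 and leachate 1 together, 5 rose and 5 fell. igfbp1b, a growth factor binding protein gene (169 to 64.5 CPM, log2 -1.39 ± 0.14, adjusted p = 1.57e-04), and the mitophagy gene bnip3 (62.8 to 32.0 CPM, log2 -0.97 ± 0.13, adjusted p = 7.61e-04) fell.

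Markers of other blood and vessel cells were counted in the same way, beside 7.87% of all genes higher and 7.29% lower. Of 9 neutrophil genes 0 rose and 1 fell, of 12 macrophage genes 1 rose and 0 fell, and of 9 thrombocyte, 15 endothelium and 10 blood stem and progenitor genes 0 passed in either direction. The summed CPM of the macrophage list lay between 508 and 531 in controls and between 515 and 541 in leachate pools, and that of the endothelium list between 198 and 227 and between 184 and 207. Of 8 liver genes 1 rose, and of 8 skeletal muscle genes 2 rose, and 0 fell in either list. The neutrophil count was 0 without control 1, control 3, leachate 1 or leachate 2, and 2 without control 2, while 1 neutrophil gene rose without leachate 3. In the muscle list 1 gene rose without any single pool other than control 2. Without control 2, 1 gene fell in each of the endothelium, liver and muscle lists, and without leachate 1, 1 progenitor gene rose and 1 liver gene fell. The summed CPM of the skeletal muscle list lay between 30881 and 37952 in controls and between 23801 and 31840 in leachate pools. The part of these cells in the hemoglobin values was not tested.

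Genes beside the globin clusters were read from the same fit. The log2 fold changes of the 5 nearest measured genes on each side of both clusters, 20 in all, had their median at -0.029. Among the 20 neighbours 1 rose and 1 fell, while 7.87% of all genes tested were called higher and 7.29% lower. aqp8a.1, an aquaporin gene beside the smaller cluster, rose from 32.9 to 47.8 CPM (log2 0.54 ± 0.11, adjusted p = 0.00674). aanat2, the pineal gene of the rhythmic step of melatonin synthesis, lies near the larger cluster and fell from 3.19 to 1.65 CPM (log2 -0.95 ± 0.21, adjusted p = 0.013), a call lost without leachate 3 (0.0553). nprl3, which borders the larger cluster and whose introns hold the alpha-globin enhancers in mammals, was at 7.03 ± 0.785 CPM in controls and 6.59 ± 0.593 CPM in leachate pools and did not pass (log2 -0.093 ± 0.15, adjusted p = 0.731).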

How the data were processed

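RNA of 6 larval pools was depleted of ribosomal RNA and sequenced from stranded libraries, per the labels' protocols. The submitters' processing notes list HISAT2, StringTie 2.1.3b, DESeq2 and GRCz11 but not the step each served. The authors deposited a whole-number read count, a TPM and an FPKM per gene and sample, per the file headers. Every gene listed has at least 1 read in each sample. Counts per sample summed to between 37030725 and 48431952.

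Counts were fitted with edgeR 4.0.16 in R 4.3.3 (TMM, expression filter by group, robust quasi-likelihood F test, Benjamini-Hochberg adjustment over 23761 genes, called at an adjusted p under 0.05). The SE is the log2 fold change divided by the square root of F, and 95% intervals use the degrees of freedom of the fit. All 10 hemoglobin genes passed the filter. Other scalings (RLE, upper quartile, library totals), tests (DESeq2 1.42.0, limma-voom in limma 3.58.1), filters (none, or 1 CPM in 3 samples), a non-robust fit, a threshold of 0.01, a replicate block and leaving out each sample were tried. Leaving out control 2 and leachate 1 together was added after seeing the data. The scripts were tested on simulated data.

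The members and the 14 gene lists were chosen with earlier results of these data known. Of 209 list symbols, 195 are in the table. The genes named are all members, the called genes with the 2 largest changes per direction of each list (the 2 most abundant where none was called), 7 preset genes, called neighbours and nprl3, which was named after its value was seen. The heme synthesis genes called are all listed by name. Of the genes so chosen, 11 that came in only through lists of other cell types are counted but not described. Gene order and other symbols came from a RefSeq gene table of the assembly GRCz12tu, matched by gene ID for 10 of 10 members. It differs from the files' build, so no coordinates are given.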

Additional observations from a re-analysis of the deposited data

How the results depend on the processing

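The number of hemoglobin genes called was 0 in each direction under all 17 alternatives. Of these, 16 were refits. The threshold of 0.01 was applied to the main fit, where 0 calls at 0.05 fixed its result. The lowest adjusted p was 0.0555 (hbz, log2 0.995, without control 2 and leachate 1 together) and, among abundant genes, 0.0809 (hbbe1.2, log2 0.36, library totals). Some fitted changes changed sign. Among them, hbae5 (-0.35 ± 0.40) and gata1a (0.71 ± 0.54) were not near 0 with all pools, but had wide SEs. Without control 2 and leachate 1 together, the changes were -0.0869 for hbae1, -0.0893 for hbae3, 0.0457 for hbae5 and -0.012 for hbae1.3. In that fit mb was at -0.33 and gata1a at -0.139. With library totals the changes were 0.134 for hbbe2 and 0.146 for LOC100334599, and hbbe2 was at 0.00041 with limma-voom. Leaving out 1 sample at a time gave -0.0234 to 0.155 for hbae1, -0.0781 to 0.175 for hbae3, -0.113 to 0.126 for hbbe2, -0.785 to 0.00705 for hbae5, -0.133 to 0.148 for LOC100334599 and -0.368 to 0.288 for mb. Over all genes, 1871 were higher and 1731 lower. These counts were 2809 and 868 with library totals, 796 and 692 at an adjusted p under 0.01, and 970 to 2063 and 896 to 1996 without 1 sample, and 2606 were lower without control 2 and leachate 1. Erythroid genes called were 5 up and 0 down with library totals, 5 up without control 2 and leachate 1, 2 down with DESeq2, limma-voom or the CPM filter, 0 down at 0.01, and 2 to 5 up and 0 to 1 down without 1 sample. Heme synthesis genes called were 0 down with library totals, 5 up and 0 down at 0.01, and 0 to 4 down without 1 sample. Deviations of same-numbered pools from their group means correlated at -0.0465, -0.101 and 0.0307, and those of differently numbered pools at -0.102 to 0.118. With means of only 3 pools per group, these values cannot show whether the replicate numbers pair the pools. With the replicate block 1317 genes were higher and 1248 lower, 0 of them hemoglobin genes, 0 erythroid genes were lower and 1 heme synthesis gene was lower. The ratio of summed hemoglobin levels was 1.062 in CPM for all chains and 1.08 for beta-type chains, against 1.21 and 1.22 in TPM, and for alpha-type chains in TPM it was 1.013 without control 2 and leachate 1. Reads of a class summed before fitting gave log2 fold changes of 0.042 ± 0.15 (alpha) and 0.11 ± 0.15 (beta), with no value for a single gene. The causes of these shifts were not tested. Depth limits hbae5 and hbz, with 22 to 84 reads per sample, and gata1a, at 0.136 to 0.675 CPM.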
